A study of Saccharomyces cerevisiae with 9 samples.

Results

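The genes described here are those with which budding yeast makes and uses glycerol, together with the kinase that responds to osmotic stress. They are GPD1, GPD2, GPP1, GPP2, GUT1, GUT2, STL1, GCY1 and HOG1, taken by symbol or locus tag from the deposited count and FPKM tables. All 9 were found among the 5205 genes of the count table, and all 9 passed the filter on low counts. The libraries came from Saccharomyces cerevisiae strain W303 held in YPD, a rich glucose medium, until 15 days into stationary phase with no dilution. Poly(A) RNA was sequenced from 3 groups of 3 biological replicates. WT-red were wild-type cells of red colonies, K504E-red were cdc13-K504E mutant cells of red colonies, and K504E-white were cells of the same genotype from white colonies. The mutation lies in Cdc13, a protein that binds telomeric DNA, and colony colour in W303 follows the adenine pathway. There was no white wild-type group, so colour and mutation cannot be told apart in K504E-white against WT-red. The labels call the replicates biological but do not say whether they came from separate colonies. The p-values thus set group differences against the spread between these libraries, which may not include the spread between colonies.

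Yeast makes glycerol from the glycolytic intermediate dihydroxyacetone phosphate. Glycerol-3-phosphate dehydrogenase (Gpd1, Gpd2) reduces it with NADH, and glycerol phosphatase (Gpp1, Gpp2) removes the phosphate. Glycerol is the main solute that balances high external osmolarity, and its synthesis also reoxidises NADH when oxygen is short. In osmotic stress the mitogen-activated kinase Hog1 raises transcription of GPD1, GPP2 and STL1 among other genes. Glycerol is used by the reverse path: Stl1 takes it up with protons, glycerol kinase (Gut1) phosphorylates it, and the mitochondrial dehydrogenase Gut2 oxidises the product. Gcy1, an aldo-keto reductase, can instead oxidise glycerol to dihydroxyacetone.

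Total counts were 27388755 to 34634199 per library. Replicates differed by more than counting noise: chi-square divided by its degrees of freedom was 13.5 to 31.6. STE2, the receptor gene of a cells, had 514 to 706 CPM (counts scaled to library size), against 0.610 to 4.002 CPM for STE3, its counterpart in alpha cells. Expression is given as CPM, scaled by TMM, for comparisons of a gene between libraries, and as the deposited FPKM, which is per gene length, for comparisons between genes. The threshold for a call was an adjusted p-value under 0.05 in edgeR's quasi-likelihood test, with adjustment over all 5172 genes tested. ADE2, whose mutation reddens W303 colonies, had 86.2 ± 9.97 CPM in WT-red, 121 ± 8.55 CPM in K504E-red and 439 ± 14.7 CPM in K504E-white (SD, n = 3).

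By FPKM, the making genes stood far above GUT1, GUT2 and STL1 in all 3 groups, while GCY1 lay among the making genes. In WT-red the order was GPP1 (1667 ± 233 FPKM), GPD1 (762 ± 48.8), GCY1 (450.5 ± 44.0), GPP2 (429.7 ± 45.7), HOG1 (381 ± 4.73), GPD2 (353 ± 34.3), GUT2 (42.4 ± 5.30), GUT1 (42.1 ± 3.43) and STL1 (10.6 ± 0.539; SD, n = 3 each). Neighbours overlapped from GCY1 to GPD2 and between GUT2 and GUT1, while the other steps were wider than the range of the libraries. GPP1 ranked 95th of all genes by mean FPKM in WT-red, and STL1 ranked 4819th. The mean of GPP2 lay above those of GPD2 and HOG1 in WT-red and in K504E-red, at 723 ± 90.0 FPKM in the latter, and below both in K504E-white, at 210.4 ± 10.7 FPKM.

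Some of these genes have paralogs from which their reads must be told apart, and similarity was measured in the S288C reference genome. GPP1 and GPP2 share 83.3% of bases over 748 aligned bp of their coding sequences, with a longest identical run of 26 bp. GPD1 and GPD2 share 74.6% over 1084 bp, with a longest run of 25 bp, and GCY1 and its relative YPR1 share 69.8% over 762 bp, with a longest run of 15 bp. GUT1, GUT2 and STL1 had no similar coding sequence by BLAST. How the authors assigned reads is not given in the sources used here.

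**Figure D1:**
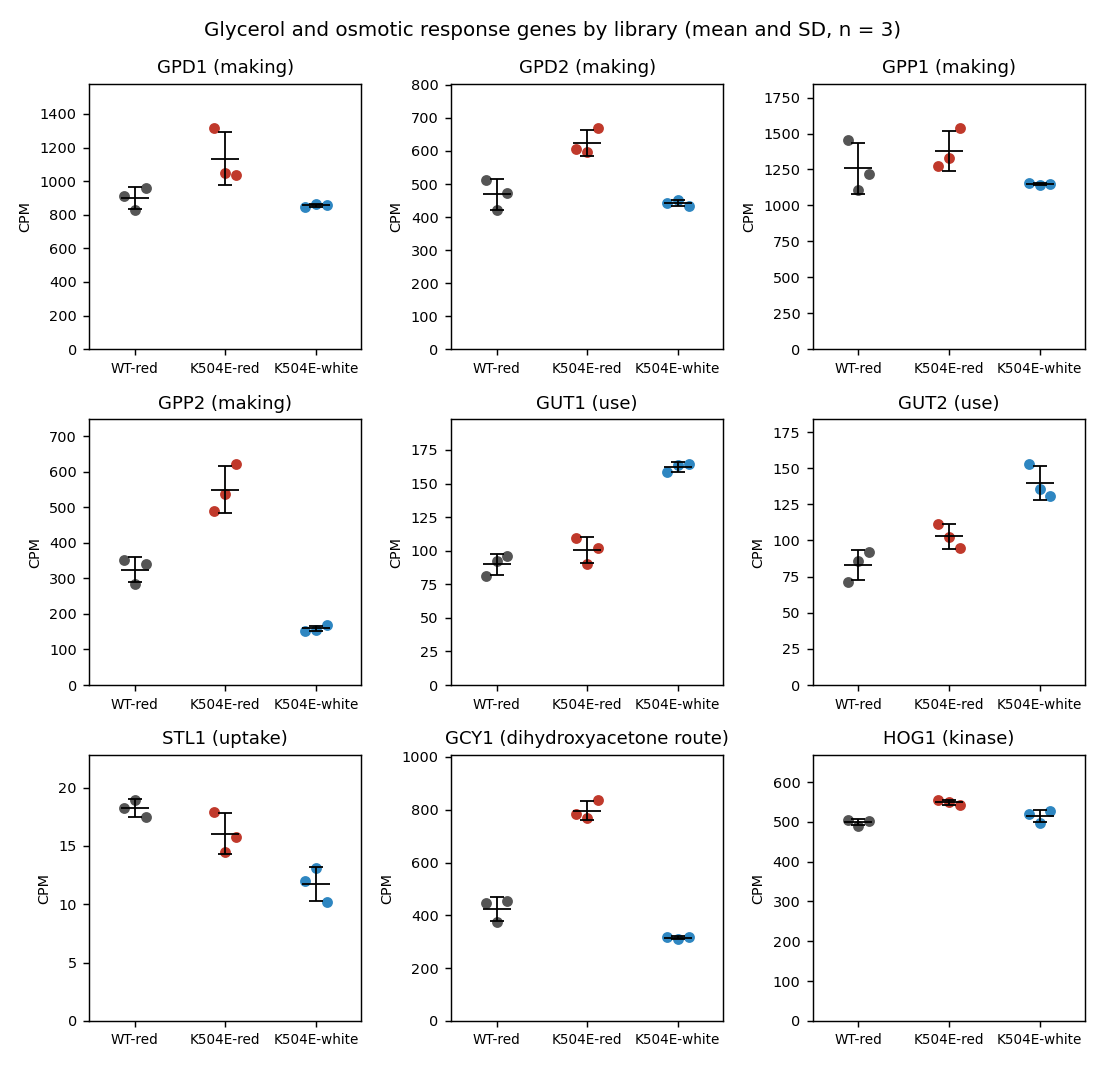
CPM of the 9 genes, 1 panel per gene, with 1 point per library and the mean and SD of each group (n = 3) on a linear axis from 0. GPP2 and GCY1 are highest in K504E-red and lowest in K504E-white, and GUT1 and GUT2 are highest in K504E-white.

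The largest difference among the making genes was in the phosphatase GPP2 (YER062C; W303 contig 249, 29395 to 30147, minus strand, coding length 753 bp). Its level was 351, 283 and 339 CPM in WT-red, 489, 539 and 623 CPM in K504E-red, and 153, 156 and 168 CPM in K504E-white. The 3 groups did not overlap, with the red mutant highest and the white mutant lowest. Against WT-red, GPP2 rose in K504E-red by 0.76 on the log2 scale (SE 0.0832, adjusted p 1.79e-06 by edgeR) and fell in K504E-white by 1.03 (SE 0.0844, adjusted p 1.88e-08 by edgeR). Comparing the mutant's colours, GPP2 was 3.46-fold lower in white (log2 fold change -1.79, SE 0.0857, adjusted p 8.26e-12 by edgeR). In these bulk cultures, fewer cells that express a gene and less RNA per cell cannot be told apart.

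The other phosphatase gene, GPP1 (YIL053W; contig 70, 8609 to 9361, plus strand, coding length 753 bp), moved much less. It had 1452, 1107 and 1217 CPM in WT-red, 1273, 1331 and 1539 CPM in K504E-red, and 1154, 1140.3 and 1148 CPM in K504E-white. WT-red spanned most of the range of both mutant groups, while the white libraries lay close together and below the red mutant libraries. GPP1 was not called in K504E-red (log2 fold change 0.13, SE 0.0823, adjusted p 0.196 by edgeR) or K504E-white (-0.13, SE 0.0823, adjusted p 0.198) against WT-red. It was lower in white than in red mutant cells (log2 fold change -0.27, SE 0.0823, adjusted p 0.0108 by edgeR), a call that ended without K504E-red replicate 3 (-0.18, adjusted p 0.0757). Calls of GPP1 against WT-red also depended on single libraries: it was called in K504E-red without WT-red replicate 1 (0.22, adjusted p 0.0216 by edgeR) and in K504E-white without WT-red replicate 2 (-0.22, adjusted p 0.0385).

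The share of GPP2 in the summed FPKM of both genes is a ratio within a library and does not depend on library scaling. It was 19.5%, 20.4% and 21.8% in the WT-red libraries, 27.8%, 28.8% and 28.8% in K504E-red, and 11.7%, 12.04% and 12.8% in K504E-white. The osmotically induced member of the pair thus made up the largest share of phosphatase transcripts in the red mutant and the smallest in the white mutant.

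GPD1 and GPD2, the glycerol-3-phosphate dehydrogenase genes of glycerol making, were highest in the red mutant and did not separate K504E-white from WT-red. GPD1, the osmotically induced form (YDL022W; contig 37, 183269 to 184444, plus strand, 1176 bp), had 909.5, 828 and 957 CPM in WT-red, 1317, 1048 and 1037 CPM in K504E-red, and 846, 862 and 861 CPM in K504E-white. All red mutant libraries lay above all others, and K504E-red replicate 1 was the highest of them. GPD1 rose in K504E-red against WT-red by 0.34 on the log2 scale (SE 0.0769, adjusted p 0.0017 by edgeR) and was lower in white than in red mutant cells (-0.41, SE 0.0770, adjusted p 0.000239 by edgeR). Without K504E-red replicate 1 the rise was 0.22 and was still called.

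GPD2, the form best known for its role in anaerobic redox balance (YOL059W; contig 133, 241495 to 242817, minus strand, 1323 bp), followed the same order. Its level was 513, 419.9 and 473 CPM in WT-red, 607, 596 and 669.9 CPM in K504E-red, and 441, 452 and 435 CPM in K504E-white. K504E-red stood above the other groups, which overlapped. GPD2 rose in K504E-red by 0.41 on the log2 scale (SE 0.0660, adjusted p 6.86e-05 by edgeR) and was lower in white than in red mutant cells, at -0.50 (SE 0.0660, adjusted p 5.4e-06 by edgeR). In K504E-white against WT-red, the log2 fold changes of GPD1 and GPD2 were -0.07 (SE 0.0769, adjusted p 0.496 by edgeR) and -0.08 (SE 0.0659, adjusted p 0.331 by edgeR). GPD2 reached the threshold without WT-red replicate 2 (-0.16, adjusted p 0.05 by edgeR).

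Of the genes of glycerol use, GUT1 and GUT2 were higher in white than in red mutant cells, and STL1 was lower. Glycerol kinase GUT1 (YHL032C; contig 252, 71559 to 73688, plus strand, 2130 bp) had 81.3, 92.3 and 95.9 CPM in WT-red, 109, 90.3 and 102 CPM in K504E-red, and 158, 164 and 165 CPM in K504E-white. The white libraries lay above all others, and the red groups overlapped. GUT1 rose in K504E-white by 0.85 on the log2 scale (SE 0.0736, adjusted p 3.59e-08 by edgeR) against WT-red and by 0.69 (SE 0.0734, adjusted p 3.81e-07 by edgeR) against K504E-red. In K504E-red against WT-red it was 0.16 (SE 0.0739, adjusted p 0.0791 by edgeR). That value crossed the threshold without WT-red replicate 3 (0.21, adjusted p 0.0425 by edgeR) or K504E-red replicate 2 (0.20, adjusted p 0.0412).

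GUT2, the mitochondrial glycerol-3-phosphate dehydrogenase (YIL155C; contig 191, 142856 to 144805, plus strand, 1950 bp), rose in steps from WT-red over K504E-red to K504E-white. It had 71.2, 85.7 and 92.1 CPM in WT-red, 112, 102 and 94.8 CPM in K504E-red, and 153, 136 and 131 CPM in K504E-white. No group overlapped another. The log2 fold change of GUT2 was 0.31 in K504E-red (SE 0.0882, adjusted p 0.00821 by edgeR) and 0.75 in K504E-white (SE 0.0878, adjusted p 1.65e-06 by edgeR) against WT-red, and 0.44 between the colours (SE 0.0873, adjusted p 0.000342 by edgeR). The rise in K504E-red was not called without WT-red replicate 1, where it was 0.18 (adjusted p 0.0965 by edgeR).

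STL1, the glycerol-proton symporter (YDR536W; contig 230, 146949 to 148658, plus strand, 1710 bp), did not follow GUT1 and GUT2. It was the least expressed of the 9 genes, with 18.3, 19.0 and 17.4 CPM in WT-red, 17.9, 14.5 and 15.8 CPM in K504E-red, and 12, 13.1 and 10.2 CPM in K504E-white. The white libraries were lowest, on 338 to 450 reads each. STL1 fell in K504E-white by 0.63 on the log2 scale against WT-red (SE 0.132, adjusted p 0.000738 by edgeR) and was lower than in K504E-red (-0.45, SE 0.132, adjusted p 0.00832 by edgeR). The second of these calls ended without K504E-white replicate 3 (-0.35, adjusted p 0.0515 by edgeR). In K504E-red against WT-red, STL1 was not called (log2 fold change -0.18, SE 0.130, adjusted p 0.268 by edgeR).

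GCY1, which oxidises glycerol to dihydroxyacetone (YOR120W; contig 141, 25540 to 26478, minus strand, 939 bp), had the pattern of GPP2. It had 446, 373 and 454 CPM in WT-red, 783, 769 and 839 CPM in K504E-red, and 319, 309 and 318 CPM in K504E-white. No group overlapped another, with the red mutant highest and the white mutant lowest. GCY1 rose in K504E-red by 0.91 on the log2 scale (SE 0.0655, adjusted p 3.97e-08 by edgeR) and fell in K504E-white by 0.43 (SE 0.0654, adjusted p 3.62e-05 by edgeR) against WT-red. Between the colours it was 2.53-fold lower in white (log2 fold change -1.34, SE 0.0661, adjusted p 1.33e-11 by edgeR).

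HOG1, the osmotic stress kinase (YLR113W; contig 62, 78495 to 79802, minus strand, 1308 bp), varied least. Its level was 505, 490.3 and 503 CPM in WT-red, 556, 549.9 and 543 CPM in K504E-red, and 519.8, 498 and 528 CPM in K504E-white. K504E-red lay above both other groups, which overlapped each other. The log2 fold change of 0.14 in K504E-red against WT-red (SE 0.0472, adjusted p 0.0231 by edgeR) was called, but the call was lost under 12 of 17 alternatives, 8 of which left out a single library. HOG1 was not called in K504E-white against WT-red (0.04, SE 0.0472, adjusted p 0.471 by edgeR) or against K504E-red (-0.09, SE 0.0472, adjusted p 0.104). Transcript counts carry no measure of the phosphorylation that activates this kinase.

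**Figure D2:**
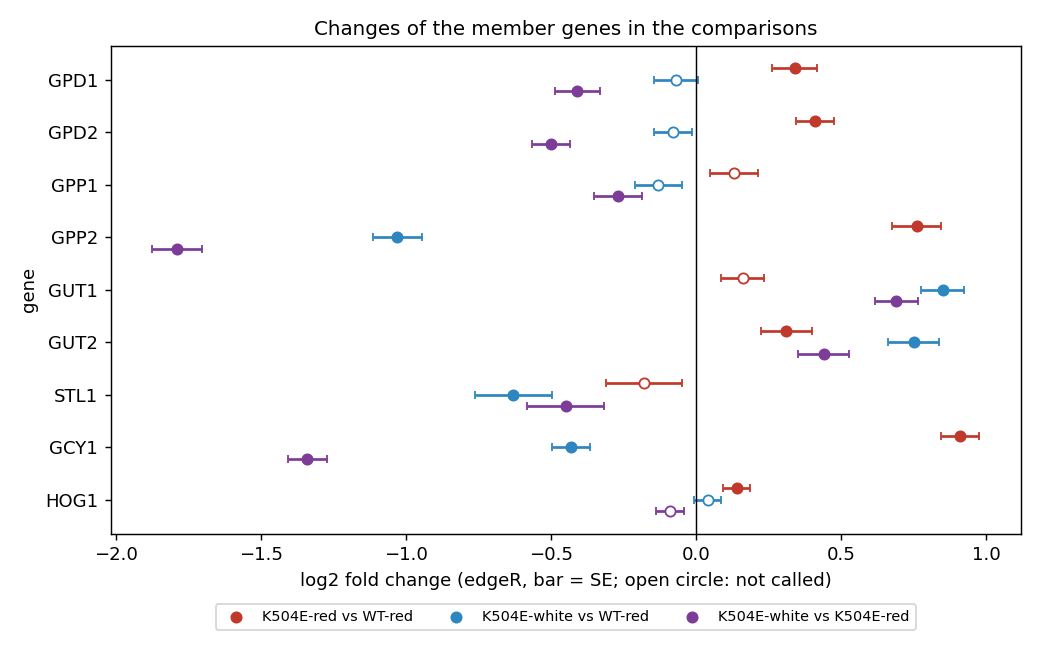
log2 fold changes of the 9 genes with their SE in the 3 comparisons, from edgeR on all 9 libraries; filled circles were called at an adjusted p-value under 0.05. GPP2 and GCY1 lie right of 0 in K504E-red and left of 0 in K504E-white against WT-red, and GUT1 and GUT2 lie right of 0 wherever they were called.

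Counted together, 6 of the 9 genes were called in K504E-red against WT-red, where 47.5% of all tested genes were called. All 6 (GPD1, GPD2, GPP2, GUT2, GCY1 and HOG1) were higher, and of all genes 25.8% were called higher and 21.7% lower. The groups did not overlap for 6 of the 9 genes and for 54.6% of all genes. The median log2 fold change of the 9 genes was 0.31, beside 0.03 over all genes. In K504E-white against WT-red, 5 of the 9 were called (GUT1 and GUT2 higher, GPP2, STL1 and GCY1 lower), where 46.8% of all genes were called, 23.3% higher and 23.5% lower. The groups did not overlap for 5 of the 9 genes and for 56.1% of all genes. With a median of -0.08, beside -0.01 over all genes, the 9 genes had no common direction there. Between K504E-white and K504E-red, 8 of the 9 were called, where 54.5% of all genes were called, 27.2% higher and 27.3% lower: GUT1 and GUT2 were higher and GPD1, GPD2, GPP1, GPP2, STL1 and GCY1 lower. All 9 had groups that did not overlap there, beside 61.9% of all genes. The comparisons share groups, so their counts are not independent of each other.

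Glycerol making and use were also set against each other within each library, as the mean log2(FPKM + 1) of GPD1, GPD2, GPP1 and GPP2 minus that of GUT1, GUT2 and STL1. The difference was 4.81, 4.36 and 4.54 in the WT-red libraries, 4.73, 4.92 and 5.0 in those of K504E-red, and 3.85, 3.87 and 4.01 in those of K504E-white. The white libraries were the lowest, and the red groups overlapped. WT-red had a mean of 4.57 ± 0.223, K504E-red of 4.88 ± 0.139 and K504E-white of 3.91 ± 0.0840 (SD, n = 3). No test was run on this measure, since its genes were chosen with results of these data known.

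The making genes summed to 2884 to 3554 FPKM in WT-red, to 3789 to 4219 FPKM in K504E-red and to 2776 to 2798 FPKM in K504E-white. For the use genes the sums were 85.3 to 101.2 FPKM in WT-red, 102.4 to 117.5 FPKM in K504E-red and 149.9 to 159 FPKM in K504E-white. WT-red had a ratio of the sums of 34.1 ± 6.63, K504E-red of 36.7 ± 3.71 and K504E-white of 18.1 ± 0.609 (SD, n = 3). Transcripts of the making genes thus outnumbered those of the use genes per length in every library, and by the smallest factor in the white mutant.

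**Figure D3:**
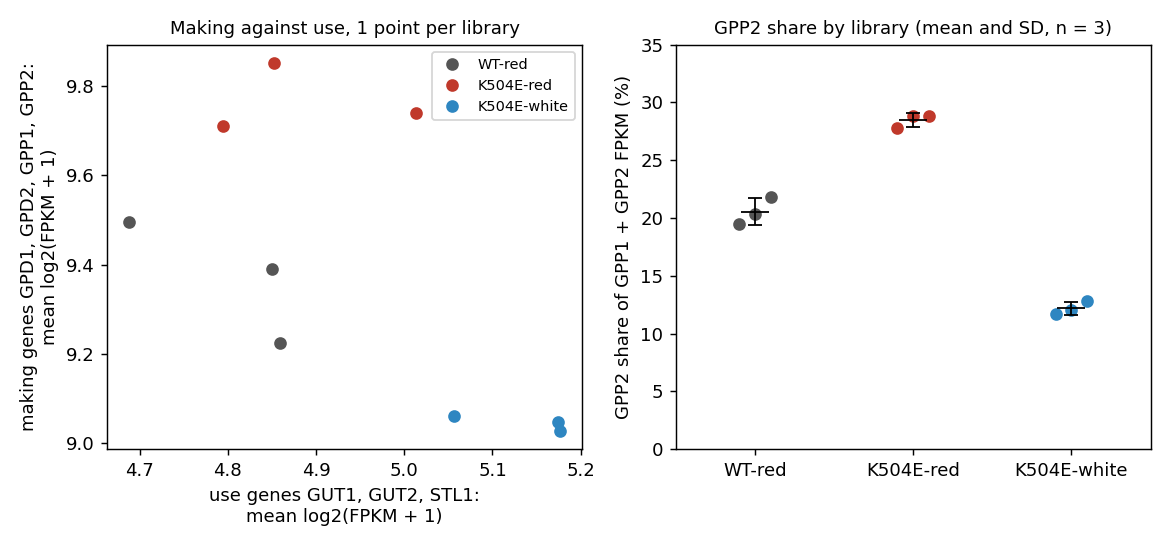
Left, mean log2(FPKM + 1) of the making genes against that of the use genes, 1 point per library; right, GPP2 as a percentage of the summed FPKM of GPP1 and GPP2, with mean and SD (n = 3) from 0. The K504E-white libraries lie at the lower right of the left panel, and their GPP2 share is 11.7% to 12.8%.

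The other genes of the pathway were taken from 4 lists, with 52 genes tested. The first list holds 14 genes linked to the glycerol path, such as channels, kinases and NADH dehydrogenases. In K504E-red against WT-red, 8 of them were higher and 1 lower. In K504E-white against WT-red, 4 were higher and 3 lower, and between the colours 2 were higher and 6 lower. The list's median log2 fold change was 0.24 in the first of these comparisons, and within 0.04 of 0 in both others. Of all genes tested, 25.8% were called higher and 21.7% lower in the first comparison, 23.3% and 23.5% in the second, and 27.2% and 27.3% between the colours. With 7 of 14 genes called, the share in K504E-white against WT-red lay near that of all genes, 46.8%.

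YPR1, a reductase related to GCY1, had 334 CPM in WT-red, 416 CPM in K504E-red and 212 CPM in K504E-white on average, with log2 fold changes of 0.32 (SE 0.0611, adjusted p 0.000407 by edgeR) and -0.66 (SE 0.0616, adjusted p 1.04e-07) against WT-red. DAK1, a dihydroxyacetone kinase, rose by 0.26 in K504E-red against WT-red (SE 0.0566, adjusted p 0.00133 by edgeR) and was not called in K504E-white (0.02, SE 0.0566, adjusted p 0.822). DAK2, a second such kinase at a far lower level, fell in K504E-white from 17.5 ± 1.25 to 7.91 ± 1.97 CPM (log2 fold change -1.15, SE 0.180, adjusted p 5.03e-05 by edgeR) and was not called in K504E-red (0.28, SE 0.172, adjusted p 0.19). All 3 genes were lower in white than in red mutant cells, by log2 fold changes of -0.97 for YPR1, -0.24 for DAK1 and -1.43 for DAK2.

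The external NADH dehydrogenases, which like Gut2 pass cytosolic reducing power to the respiratory chain, split. NDE2 rose from 11.7 ± 1.53 CPM in WT-red to 17.7 ± 2.79 in K504E-red and 33.7 ± 2.89 in K504E-white, with log2 fold changes of 0.60 (SE 0.136, adjusted p 0.00149 by edgeR) and 1.53 (SE 0.134, adjusted p 4.53e-08). NDE1, the more abundant form, fell in K504E-white by 0.72 on the log2 scale against WT-red (SE 0.0876, adjusted p 2.87e-06 by edgeR) and was not called in K504E-red (-0.01, adjusted p 0.92). GPT2, an acyltransferase that draws glycerol-3-phosphate into lipids, rose by 0.37 in K504E-red and 0.41 in K504E-white, and TPI1, the isomerase of dihydroxyacetone phosphate, by 0.24 and 0.27.

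FPS1, the channel through which glycerol leaves the cell, was lower in K504E-red against WT-red (log2 fold change -0.14, SE 0.0563, adjusted p 0.0438 by edgeR). This call was lost without WT-red replicate 2 or 3 or K504E-red replicate 1 or 3 (adjusted p 0.0545 to 0.0759). FPS1 was similar but not called in K504E-white against WT-red (-0.13, SE 0.0562, adjusted p 0.0622 by edgeR), and the colours did not differ (0.01, adjusted p 0.877). ASK10 (RGC2) and RGC1, which regulate this channel, rose in K504E-red by 0.36 (SE 0.0636, adjusted p 0.000181 by edgeR) and 0.25 (SE 0.0535, adjusted p 0.00109). Both were lower in white than in red mutant cells, with log2 fold changes of -0.34 and -0.27. YIG1, described as an inhibitor of glycerol phosphatase, had about 3 to 5 CPM; its call between the colours (0.70, SE 0.280, adjusted p 0.0439 by edgeR) was lost under 6 of 17 alternatives, among them limma (adjusted p 0.0735) and leaving out any 1 of WT-red replicate 2, the first or second K504E-red and the first or second K504E-white replicate (adjusted p 0.0527 to 0.219).

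Of 18 genes of the HOG signalling pathway, 4 were higher and 4 lower in the red mutant against WT-red, with a median log2 fold change of 0.04. In K504E-white against WT-red, 3 were higher and 7 lower (median -0.07), and between the colours 4 were higher and 5 lower (median -0.06). Of all genes tested, 25.8% were called higher and 21.7% lower in the first comparison, 23.3% and 23.5% in the second, and 27.2% and 27.3% between the colours. The list's shares lay near these in the first comparison and between the colours. In K504E-white against WT-red the share called lower, 7 of 18, lay above that of all genes. In the branch of the membrane sensor Sho1, SHO1 itself was lower in K504E-red (-0.52, SE 0.0680, adjusted p 8.4e-06 by edgeR) and in K504E-white (-0.42, SE 0.0675, adjusted p 7.01e-05) than in WT-red. HKR1 and MSB2 encode mucins of that branch. HKR1 rose in K504E-white by 0.80 against WT-red (SE 0.0950, adjusted p 1.91e-06 by edgeR) and by 0.90 against K504E-red, while MSB2 fell by 0.46 in K504E-red and was higher by 0.44 in white than in red mutant cells.

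At the kinase module, PBS2, the kinase that activates Hog1, rose by 0.27 in K504E-red (SE 0.0572, adjusted p 0.00107 by edgeR). PTP2 and PTP3, which encode phosphatases that inactivate Hog1, moved apart in K504E-red: PTP2 was higher by 0.27 (adjusted p 0.00773 by edgeR) and PTP3 fell by 0.59 (SE 0.107, adjusted p 0.000213). PTC1, another phosphatase gene of the list, was not called there (0.13, SE 0.0832, adjusted p 0.212 by edgeR). The call of PTP2 was lost without WT-red replicate 1 (0.21, adjusted p 0.0638) or K504E-red replicate 3 (0.19, adjusted p 0.0887). Between the colours PTP2 was lower in white (-0.50, SE 0.0778, adjusted p 3.03e-05 by edgeR), as were SSK1, a response regulator of the other branch (-0.46), and NBP2, an adaptor for a phosphatase of the pathway (-0.31). NBP2 was not called without K504E-red replicate 3 (-0.19, adjusted p 0.0611). STE20, a kinase of the Sho1 branch, was higher by 0.35 in white than in red mutant cells. RCK2, a kinase downstream of Hog1, rose by 0.18 in K504E-red (adjusted p 0.00808 by edgeR) and 0.21 in K504E-white (adjusted p 0.00232) against WT-red, the first of which was not called without WT-red replicate 1 (0.13, adjusted p 0.0682) or K504E-red replicate 1 (0.14, adjusted p 0.0516). OPY2, a membrane anchor of the Sho1 branch, was called higher in K504E-red (0.18, adjusted p 0.0198 by edgeR) and K504E-white (0.16, adjusted p 0.0404). These calls were lost under 10 and 11 of 17 alternatives, 7 of which left out a library in each case, with adjusted p-values of up to 0.175 and 0.387.

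Of 9 osmotic stress targets tested from a list of 15, 8 were called higher and 0 lower in the red mutant against WT-red (median 0.44). The other 6 listed genes were not analysed here. Among those that rose, MSC1 was higher by 0.62 on the log2 scale (SE 0.0717, adjusted p 3.12e-06 by edgeR), RTN2 by 0.52 and TPS2, a trehalose synthesis gene, by 0.44. GRE1, a hydrophilin gene, was higher by 0.85 (adjusted p 0.00474 by edgeR) but not without K504E-red replicate 3 (0.46, adjusted p 0.0681). Of all genes, 25.8% were called higher and 21.7% lower in the red mutant. In K504E-white against WT-red, 4 of the 9 targets were higher and 1 lower (median 0.22), beside 23.3% and 23.5% of all genes. HSP12, a small heat shock protein gene, rose from 425 ± 86.0 CPM in WT-red to 1798 ± 283 CPM (log2 fold change 2.08, SE 0.135, adjusted p 7.55e-10 by edgeR) and GRE1 rose by 1.59. MSC1 was higher by 0.48 and RTN2 by 0.24 (adjusted p 0.0215 by edgeR), a call of RTN2 lost without any 1 of WT-red replicate 1 or 2 and K504E-white replicate 1 or 3 (adjusted p 0.0604 to 0.119). CTT1, the cytosolic catalase gene, fell by 0.35 (SE 0.0887, adjusted p 0.0034 by edgeR). Between the colours 2 targets were higher and 5 lower in white, beside 27.2% and 27.3% of all genes, with CTT1 at -0.62, PHM7 at -0.51 and TPS2 at -0.40.

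Of 11 regulator genes tested, 5 were higher and 1 lower in the red mutant against WT-red, 7 higher and 2 lower in K504E-white against WT-red, and 6 higher and 2 lower between the colours. The share of all genes called in either direction was 47.5%, 46.8% and 54.5% in these comparisons, and the 6 of 11 regulators called in K504E-red lay near it. By direction, 25.8% of all genes were higher and 21.7% lower in the first comparison. The shares were 23.3% and 23.5% in the second, and 27.2% and 27.3% between the colours. CAT8, RSF2 and ADR1, which activate genes for growth without glucose, had their highest mean in the white mutant. CAT8 rose in K504E-white by 1.15 (SE 0.108, adjusted p 1.07e-07 by edgeR), RSF2 by 0.72 (SE 0.0719, adjusted p 2.31e-07) and ADR1 by 0.74 (SE 0.105, adjusted p 1.47e-05) against WT-red. All 3 were also higher in K504E-red than in WT-red: ADR1 by 0.50 (SE 0.105, adjusted p 0.000839 by edgeR), RSF2 by 0.30 (adjusted p 0.00228) and CAT8 by 0.32 (adjusted p 0.0239). The call of CAT8 was lost without any 1 of WT-red replicate 1, K504E-red replicate 1 or 2 and K504E-white replicate 1 or 2, with log2 fold changes of 0.18 to 0.30 (adjusted p 0.0529 to 0.225 by edgeR). The difference of ADR1 between the colours was not called (0.24, SE 0.103, adjusted p 0.0568 by edgeR), but was without K504E-red replicate 2 (0.40, adjusted p 0.0022). INO2, an activator of phospholipid genes, fell by 0.71 in K504E-red (SE 0.0995, adjusted p 1.76e-05 by edgeR) and was higher by 0.94 in white than in red mutant cells, and OPI1, its repressor, was higher by 0.74 in the same comparison.

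Among the factors of osmotic and general stress, MSN2 fell in K504E-white by 0.40 against WT-red (SE 0.0748, adjusted p 0.000278 by edgeR), while its paralog MSN4 rose by 0.30 in K504E-red (SE 0.0525, adjusted p 0.000166) and by 0.51 in K504E-white. HOT1, a partner of Hog1 at GPD1 and STL1, fell in K504E-white by 0.23 against WT-red (SE 0.0827, adjusted p 0.0276 by edgeR) and by 0.26 against K504E-red (SE 0.0828, adjusted p 0.0147). The first of these calls was lost without WT-red replicate 2 or 3 or K504E-white replicate 3 (adjusted p 0.0588 to 0.0890). The second was lost without K504E-red replicate 1 (adjusted p 0.0840) or K504E-white replicate 3 (adjusted p 0.0736).

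**Figure D4:**
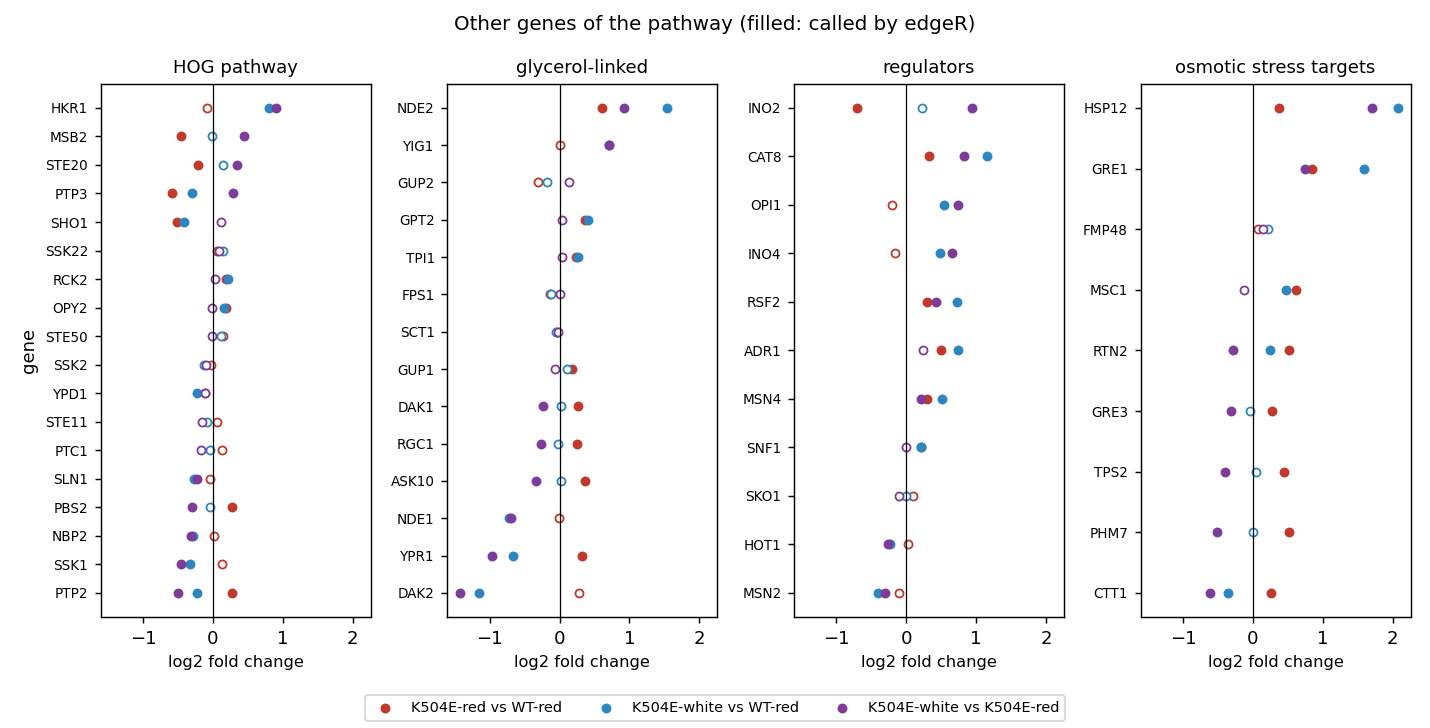
log2 fold changes of the 52 other genes tested, in 4 lists, sorted by the change between the colours of the mutant; filled circles were called by edgeR. The HOG pathway genes spread to both sides of 0, and the K504E-red values of the osmotic stress targets lie above 0.

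Markers of stationary phase moved with some of these results. Of 8 such genes tested, 7 were higher and 0 lower in the red mutant against WT-red. In K504E-white 6 were higher and 1 lower than in WT-red, and between the colours 4 were higher and 3 lower. Of all genes, 47.5%, 46.8% and 54.5% were called in these comparisons. By direction, 25.8% were higher and 21.7% lower in the first, 23.3% and 23.5% in the second, and 27.2% and 27.3% between the colours. The summed level of the 8 genes was 4576 to 5060 CPM in WT-red, 6887 to 7575 CPM in K504E-red and 6688 to 7745 CPM in K504E-white. YGP1, a secreted glycoprotein gene, made up most of this sum in the red groups, with 3166 ± 174 CPM in WT-red and 4942 ± 330 CPM in K504E-red, against 2825 ± 21.0 CPM in K504E-white. HSP26, a small heat shock protein gene, had 563 ± 52.4 CPM in WT-red, 748 ± 95.5 CPM in K504E-red and 1671 ± 206 CPM in K504E-white. The sums of the mutant groups overlapped, while YGP1 was lower and HSP12 and HSP26 were higher in white, with log2 fold changes between the colours of -0.81, 1.70 and 1.16 (adjusted p 3.01e-09, 7.58e-09 and 1.05e-08 by edgeR). The list holds HSP12 and GRE1, which are also osmotic stress targets. The part of a shift in culture state in the values above was not tested.

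For each of the 9 genes, the gene with the most similar profile was sought among 4872 others with a mean of at least 10 CPM, by Pearson correlation of log2 CPM over the 9 libraries. As the libraries form 3 groups, these coefficients describe mainly the group levels and carry no test. GPP2 was closest to YMR1, a phosphoinositide phosphatase gene (r = 0.996), and GCY1 to PMC1, a vacuolar calcium pump gene (r = 0.995). GUT1 was closest to HSP12 (r = 0.994) and GUT2 to SAP1, which encodes an ATPase (r = 0.988). The nearest profile to GPD2 was that of HIS4, a histidine synthesis gene (r = 0.976), at 1212 ± 165 CPM in WT-red, 2260 ± 172 CPM in K504E-red and 1217 ± 57.7 CPM in K504E-white. GPD1 was closest to BCH1 (r = 0.974), HOG1 to SHY1 (r = 0.968), STL1 to ANT1, a peroxisomal nucleotide carrier gene (r = 0.968), and GPP1 to CAF16 (r = 0.924). A coefficient above 0.9 was reached with GPP2 by 419 genes and with GPP1 by 2 genes.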

How the data were processed

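Per the labels, RNA was extracted and poly(A) libraries were made by a sequencing provider. The authors deposited counts per gene, which are whole numbers without normalization, and FPKM per gene and library. Each FPKM was the count over coding length and over a single library total, 0.986 to 1.03 times the count sum. The gene coordinates are on W303 contigs, per the file headers. Aligner, counter and strand use are not given in the sources used here. Each table has 2 lines emptied for this work.

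Here, filterByExpr kept 5172 of 5205 genes. Counts of all 9 libraries were scaled with TMM and tested with edgeR 4.0.16 (R 4.3.3) by the two-sided quasi-likelihood test. The model held the group alone, and p-values were adjusted by Benjamini-Hochberg over all genes of a comparison. The code was tested on simulated data. SE was computed from the F statistic. Alternatives used DESeq2 1.42.0, limma 3.58.1 on log2(FPKM + 1), other scaling and filters, fits of the groups compared, a replicate block, and omission of each library. Symbols came from the RefSeq table of S288C, which matched 5114 gene IDs. Paralogs were compared with BLAST 2.17.0 on the S288C assembly, which is not that of the counts. Plots used matplotlib 3.10.9. The 9 genes and all lists were chosen with earlier results of these data known. From the 4 lists, the rule named up to 3 genes per list, comparison and direction with the largest log2 fold changes among called genes whose groups did not overlap. DAK1, RGC1, YGP1 and HSP26, and the values of some named genes in further comparisons, were added after their values were seen.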

Additional observations from a re-analysis of the deposited data

Results flagged for a closer look

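GPP2 and GCY1 were called in opposite directions against WT-red in the red and the white mutant, and also called in K504E-white against K504E-red. The flag required all of these calls on the same libraries, so the values between the colours are part of the selection and no separate support. Between the colours the log2 fold change was -1.79 for GPP2 (adjusted p 8.26e-12 by edgeR) and -1.34 for GCY1 (adjusted p 1.33e-11 by edgeR). All 3 white libraries lay below all 3 red mutant libraries for both genes, where 61.9% of all genes tested had groups that did not overlap.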

How the results depend on the processing

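Counts of called genes and of called members stayed within 1.5 times their value under every alternative run. The balance of their directions was less stable. In K504E-red against WT-red, 54.3% of the called genes were higher, and 44.8% to 55.2% under the alternatives. For K504E-white against WT-red the share was 49.8%, and 41.6% to 50.9% under the alternatives. The percentages of all genes called higher or lower given above are those of the main fit, and depend on scaling, filter and libraries. When single libraries were left out, 2019 to 2343 genes were called in K504E-red against WT-red (2455 with all), 2113 to 2464 in K504E-white against WT-red (2422) and 2510 to 2841 between the colours (2820), with 5 to 7, 5 to 7 and 7 to 8 of the 9 genes. Over the 27 results of the 9 genes, no called value changed direction. Over all alternatives 15 calls were lost, 12 of them of HOG1, and 5 gained. HOG1 in K504E-red was lost with upper quartile scaling (adjusted p 0.063), with filters of at least 1 count (0.0848) or 10 counts in every library (0.0825) and in a fit of the compared groups (0.0913). Among the listed genes, values that were not called changed sign. Without single libraries NDE1 in K504E-red ranged from -0.13 to 0.12 and DAK1 in K504E-white from -0.04 to 0.06, and DAK1 went to -0.00 with upper quartile scaling and to -0.02 with either filter. CAT8 in K504E-red was not called by limma (0.26, adjusted p 0.102) or in a fit of the compared groups (0.29, adjusted p 0.0715). ADR1 between the colours was called by DESeq2 (0.25, adjusted p 0.0413). The cause was not tested.

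Making minus use differed by 0.31 in K504E-red and -0.66 in K504E-white from WT-red, and by -0.97 between the colours. With GCY1 among the use genes these were 0.11, -0.47 and -0.58. Without STL1 they were 0.18, -1.12 and -1.29. Summed FPKM, with STL1 and without GCY1, gave 0.12 for K504E-red and -0.90 for K504E-white against WT-red. Leaving out libraries gave 0.21 to 0.43, -0.76 to -0.54 and -1.05 to -0.91.

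Same-numbered libraries did not deviate together (r -0.11 to 0.0274, and 0 of 9 correlated best with their own number). With a replicate block, 2389, 2360 and 2775 genes and 6, 5 and 8 of the 9 genes were called, and ADR1 between the colours gained a call (0.25, adjusted p 0.0418 by edgeR). Depth limits STL1 most, with 338 reads in its lowest library.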
